A study of Macaca mulatta with 16 samples.

Results

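NMNAT2, GRIA4, NWD2, MARCHF4 and DRAXIN were 5 of the 22515 genes counted in the lungs of 16 fetal rhesus macaques. They were chosen by their readout: each is known from neurons, and each was among the larger decreases relative to preterm controls after intraamniotic LPS, after LPS with betamethasone-acetate (Beta-Ac), or at term. Each symbol matched 1 rhesus Ensembl gene. All 5 passed the low-count filter that left 19199 genes for the fit across all genes, but their counts were low, and DRAXIN had the fewest. No numerical limit was used in the choice, so no genes lie just inside or just outside it.

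The study asked how prenatal inflammation, with and without a low dose of antenatal corticosteroid, changes the preterm lung. Poly(A)-selected RNA of lung tissue was sequenced, with 1 library per animal. The 4 preterm controls, delivered at 131 to 135 days of gestation, and the 2 term controls, delivered at 156 and 157 days, had no intervention. The 10 exposed fetuses had received 1 mg of LPS, a bacterial endotoxin, by injection into the amniotic cavity. Of these, 4 were treated at 129 or 130 days and delivered 16 hours later, at 130 or 131 days. In 3 fetuses LPS was given at 126 to 129 days and delivery followed after 5 days, at 131 to 134 days. The remaining 3 were treated at 126 or 127 days and delivered 5 days later, at 131 or 132 days. For these fetuses the LPS was combined with 0.125 mg/kg of intramuscular Beta-Ac given to the mother. LPS was a single injection, no animals given Beta-Ac alone were analysed here, and the age at delivery differed by up to 4 days among the preterm controls.

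The genes belong to different steps of building and keeping axons and synapses. NMNAT2 makes NAD in the axon and is needed for axons to survive, GRIA4 is a subunit of the AMPA-type glutamate receptor, and DRAXIN is a secreted guidance protein that repels growing axons and binds netrin receptors. MARCHF4 is a membrane-bound ubiquitin ligase that lowers surface proteins, and NWD2 is a protein with NACHT and WD-repeat domains whose role is little studied. The fetal lung carries nerve fibres, ganglia and Schwann cells of neural crest origin along its airways, but none of the 5 genes is restricted to neurons in every tissue.

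Defining genes of lung cell types were present in every group. NKX2-1, the transcription factor of lung epithelium, had 96.6 CPM (counts scaled to library size and composition) in preterm controls and between 66.5 and 153 in the other groups, and SFTPC, a surfactant protein of type 2 cells, had 2942 CPM in preterm controls. COL1A1 of mesenchyme (4386 CPM), PECAM1 of endothelium (695 CPM) and PTPRC of leukocytes (22.5 CPM) were also present in preterm controls. Library totals ranged from 20169363 to 28348816 counts, except in the 16 h group, where they lay between 30596371 and 48052891. Depth and the 16 h exposure therefore cannot be told apart by design, and values below are scaled to library size.

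NMNAT2 was the most evenly expressed of the genes in preterm controls and the one most clearly separated from them in every other group. Its level was 16.9, 17.1, 18.8 and 19.2 CPM in the 4 preterm controls. At 16 hours after LPS it was 2.31, 0.934, 1.14 and 1.28 CPM. At 5 days after LPS it was 4.17, 2.53 and 4.65 CPM, and with Beta-Ac it was 2.56, 2.35 and 3.12 CPM. Every exposed fetus lay far below the lowest preterm control, and the animals sampled at 16 hours were the lowest. The term controls, with 4.82 and 4.07 CPM, overlapped LPS at 5 days, lay above all LPS + Beta-Ac animals and lay below all preterm controls. These levels rest on 369 to 531 counts per preterm library and 35 to 65 counts per library at 16 hours. In the fit over all genes (limma on log2 CPM), the difference from preterm controls was -3.68 (SE 0.247) at 16 hours on the log2 scale, the 5th most negative of 19199 genes. On the same scale the differences were -2.27 (SE 0.267) for LPS at 5 days, -2.72 (SE 0.267) for LPS + Beta-Ac and -2.0 (SE 0.303) at term. As ratios of mean CPM, preterm controls were 12.7-fold, 4.76-fold, 6.72-fold and 4.05-fold above these groups in the same order. Since the genes were selected on the contrasts with preterm controls, these and the later differences from preterm controls are a description and carry no test. In bulk tissue, fewer cells of a type and less RNA per cell cannot be told apart, and this holds for every level given here.

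GRIA4 was also lower in nearly all exposed fetuses, with the lowest values 5 days after LPS alone. The preterm controls had 4.44, 4.81, 3.19 and 1.89 CPM. The 3 fetuses sampled 5 days after LPS had 0.544, 0.691 and 0.380 CPM, and the 3 with added Beta-Ac had 1.02, 0.652 and 0.886 CPM. At 16 hours the values were 0.746, 0.614, 1.96 and 0.873 CPM. Animal 035 of the 16 h group thus lay just above preterm control 209, and this was the only overlap of an exposed group with the preterm controls. The term controls had 1.62 and 0.905 CPM, both below all preterm controls. Counts were low throughout, with 52 to 104 per preterm library and 8 to 18 per library 5 days after LPS. The log2 differences from preterm controls were -1.76 (SE 0.367) at 16 hours, -2.53 (SE 0.397) for LPS at 5 days, -1.92 (SE 0.397) for LPS + Beta-Ac and -1.43 (SE 0.450) at term.

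NWD2 varied most among the preterm controls, at 8.58, 11.1, 22.4 and 5.97 CPM. The 4 fetuses at 16 hours had 1.78, 1.36, 1.26 and 1.95 CPM, and the 3 sampled 5 days after LPS had 1.31, 1.11 and 1.38 CPM. These 7 fetuses formed a narrow range below every other animal. With LPS + Beta-Ac the levels were 5.83, 2.79 and 3.74 CPM, and at term they were 2.57 and 4.56 CPM. The highest LPS + Beta-Ac animal, 248, lay only just below the lowest preterm control, 209, so the separation of these groups is narrow. The counts behind NWD2 ranged from 164 to 631 in preterm controls and from 29 to 36 at 5 days after LPS. Its log2 difference from preterm controls was -3.01 (SE 0.372) for LPS at 5 days, the 6th most negative of 19199 genes. It was -2.71 (SE 0.344) at 16 hours, -1.42 (SE 0.372) for LPS + Beta-Ac and -1.61 (SE 0.421) at term.

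MARCHF4 had its lowest mean level at term, although the ranges of the term and 16 h groups overlapped. The term controls had 0.551 and 0.291 CPM, from 15 and 9 counts, against 7.10, 7.44, 3.12 and 5.02 CPM in the preterm controls. The 16 h group had 1.17, 1.63, 0.396 and 1.16 CPM. Levels were 1.56, 2.15 and 1.99 CPM 5 days after LPS, and 3.09, 3.91 and 1.54 CPM with LPS + Beta-Ac. One LPS + Beta-Ac fetus, animal 249, lay above preterm control 113, while both LPS groups without Beta-Ac lay below all preterm controls. The log2 difference from preterm controls was -3.52 (SE 0.493) at term, the 11th most negative of 19199 genes. For the exposed groups it was -2.37 (SE 0.402) at 16 hours, -1.48 (SE 0.435) for LPS at 5 days and -1.0 (SE 0.435) for LPS + Beta-Ac.

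The 5 genes were grouped as neural genes lost from the exposed lung, and DRAXIN went against that name: it was low at term and not after exposure. Each term control had 1 count, which is 0.0368 and 0.0323 CPM. The preterm controls had 0.828, 0.555, 1.03 and 0.655 CPM, from 12 to 29 counts per library. The fetuses at 16 hours had 0.853, 0.640, 0.396 and 0.262 CPM, those sampled 5 days after LPS 0.653, 0.614 and 0.475 CPM, and those with LPS + Beta-Ac 1.24, 0.833 and 1.00 CPM. All exposed groups overlapped the preterm controls, and 1 LPS + Beta-Ac fetus lay above them. With 2 counts in the term group, a fitted fold depends on the constant added to the counts, so the ratio of counts is given in its place. From 2 counts at term and 78 in preterm controls, and allowing for library size, the preterm level was 22.6-fold the term level (95% exact interval 6.05 to 190, which covers counting error only). The log2 differences of the exposed groups from preterm controls were -0.53 (SE 0.326) at 16 hours, -0.34 (SE 0.352) for LPS at 5 days and 0.41 (SE 0.352) for LPS + Beta-Ac.

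**Figure D1:**
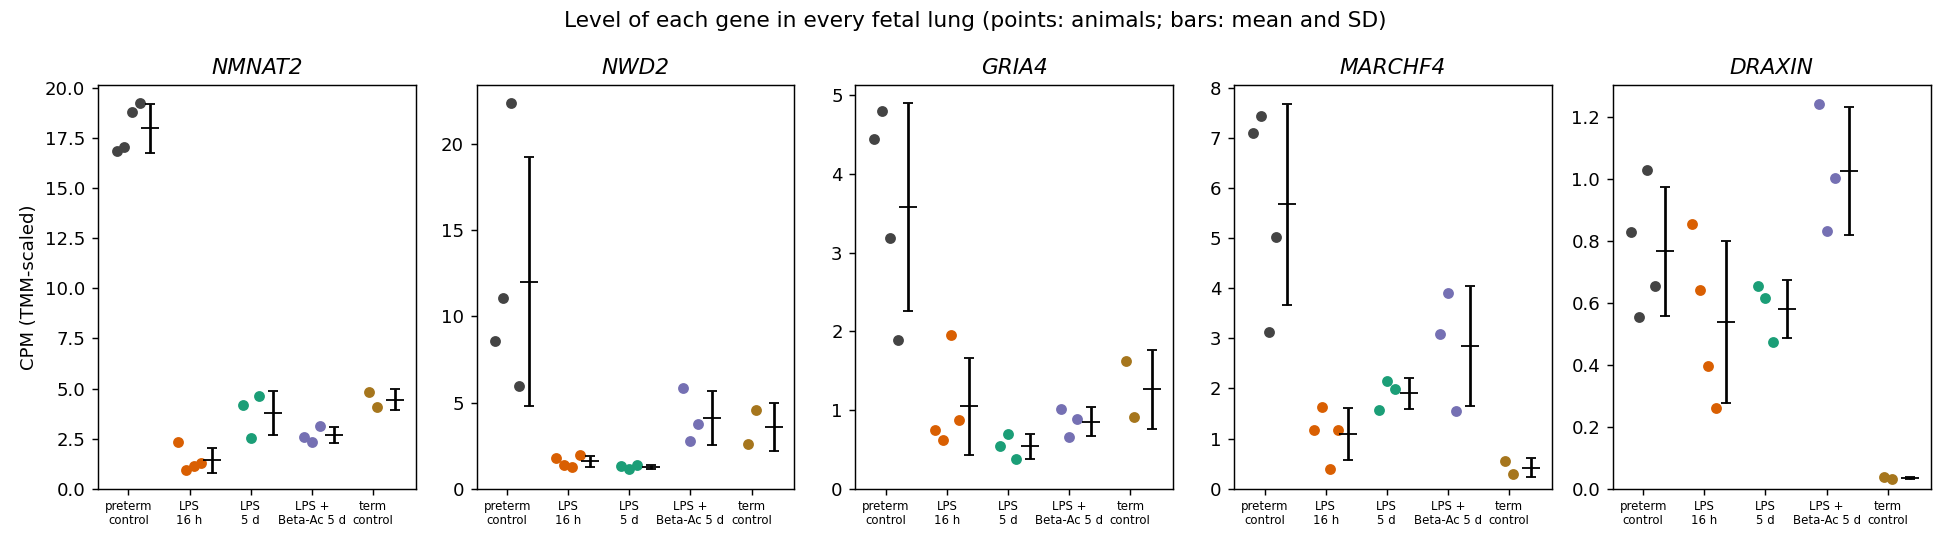
Level of NMNAT2, NWD2, GRIA4, MARCHF4 and DRAXIN in every fetal lung, in TMM-scaled CPM on a linear axis from 0 with its own range for each gene. Points are animals and bars are the mean and SD of each group. The 4 preterm controls stand clear of all other animals for NMNAT2, whereas for DRAXIN only the 2 term controls stand apart.

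The animals of the exposed groups fell below the lowest preterm control in 10 of 10 cases for NMNAT2 and NWD2, in 9 of 10 for GRIA4 and MARCHF4, and in 3 of 10 for DRAXIN. Counted by group, 3 of the 5 genes lay wholly below the preterm controls at 16 hours, 4 of 5 at 5 days after LPS, 3 of 5 with LPS + Beta-Ac and 5 of 5 at term. Over all 19199 genes, limma called 6.07% lower at 16 hours, 2.23% lower at 5 days after LPS, 2.44% lower with LPS + Beta-Ac and 0.953% lower at term, where a call needs a fold of 2 or more in size and a Benjamini-Hochberg adjusted p under 0.05. Every animal lay below the lowest preterm control for 16.6% of all genes at 16 hours, 15.6% at 5 days after LPS, 16.1% with LPS + Beta-Ac and 15.2% at term, which is the share to set beside the counts by group. As these contrasts served to pick the genes, their counts show only what was picked. The 4 contrasts share the preterm controls.

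**Figure D2:**
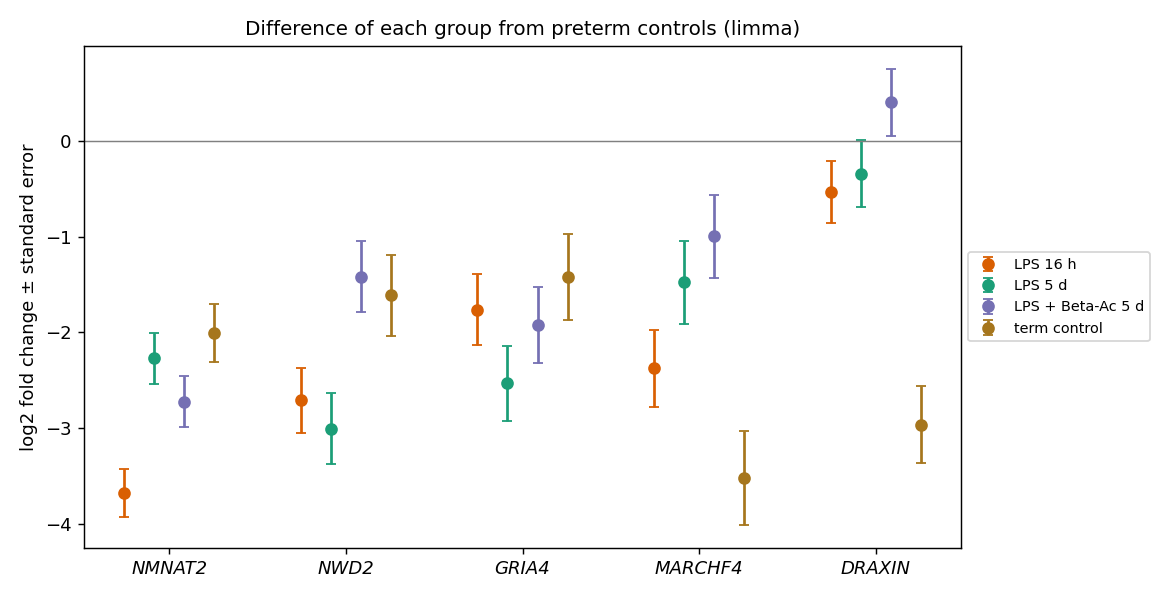
Difference of each exposed or term group from preterm controls for the 5 genes. The vertical axis is the log2 fold change fitted by limma, points are estimates and bars are standard errors. NMNAT2 at 16 hours (-3.68) and MARCHF4 at term (-3.52) lie lowest, and the DRAXIN value at term depends on the constant added to its 2 counts.

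The genes did not share 1 order of groups. NMNAT2 was lowest at 16 hours, with no overlap with the next group, LPS + Beta-Ac. NWD2 and GRIA4 were lowest 5 days after LPS, but each overlapped the group next in order, which was the 16 h group for NWD2 and LPS + Beta-Ac for GRIA4. MARCHF4 and DRAXIN were lowest at term, and while DRAXIN at term was separate from the other groups, every pair of neighbouring groups overlapped for MARCHF4. For NMNAT2, LPS + Beta-Ac overlapped LPS at 5 days, which overlapped the term group next above it. Preterm controls were highest for NMNAT2, NWD2, GRIA4 and MARCHF4, and LPS + Beta-Ac was highest for DRAXIN, overlapping the preterm controls.

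Across the 16 animals, log2 CPM of NWD2 went with that of NMNAT2 (Pearson r = 0.784) and of GRIA4 (r = 0.76), and MARCHF4 went with DRAXIN (r = 0.687). With the group means removed, the same pairs gave r of 0.175, 0.0302 and 0.00428. The correlation of these pairs thus lay mostly between groups, with little of it among animals of a group. The genes were chosen for low levels relative to the preterm controls, so a correlation between groups follows in part from the choice. These values also describe libraries that share their depth and scaling, and no test was made on them.

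Contrasts that leave out the preterm controls were tested. The choice of genes did not use them, but it used the low level of each group. This holds in particular for MARCHF4 and DRAXIN at term and for NMNAT2 at 16 hours. The calls below are therefore not independent of the choice. The share of all genes without overlap was not counted for these contrasts. Groups this small can separate by chance, so nothing is read from a lack of overlap in them. Adding Beta-Ac to LPS gave no called difference at 5 days. Limma called 0 of the 5 genes, with 1 at an unadjusted p below 0.05, limma-voom called 0, and 0.104% of all genes were called in either direction. NWD2 had the largest difference of the 5, at 1.59 (SE 0.397, adjusted p = 0.225) on the log2 scale, higher in LPS + Beta-Ac than in LPS without overlap of the 3 and 3 animals. DRAXIN also did not overlap between these groups, at 0.75 (SE 0.377, adjusted p = 1). For GRIA4, MARCHF4 and NMNAT2 the groups overlapped, with log2 differences of 0.61 (SE 0.424), 0.48 (SE 0.465) and -0.45 (SE 0.285).

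NMNAT2 was lower at 16 hours than 5 days after LPS, by -1.41 (SE 0.267, adjusted p = 0.000775) on the log2 scale, and the 4 animals of the 16 h group lay below all 3 of the 5 day group. Over the alternatives run, its adjusted p ranged from 6.90e-05 to 0.0143. Of the 5 genes, 1 was called in this contrast, in which 14.6% of all genes were called. The other genes had log2 differences of 0.29 (SE 0.372) for NWD2, 0.77 (SE 0.397) for GRIA4, -0.90 (SE 0.435) for MARCHF4 and -0.19 (SE 0.352) for DRAXIN, with overlapping groups. In the same contrast 6 of 9 leukocyte genes and 4 of 10 proliferation genes were called higher at 16 hours. The leukocyte list had a summed level of 2146 to 2790 CPM at 16 hours and 235.5 to 241 CPM at 5 days, and the part of these cells in the NMNAT2 difference was not tested.

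Against term controls, both 5 day exposed groups held more MARCHF4 and DRAXIN. The 16 h group was not tested against term. With LPS + Beta-Ac, limma called DRAXIN (adjusted p = 0.00358) and MARCHF4 higher than at term, the latter by 2.52 (SE 0.519, adjusted p = 0.0382) on the log2 scale, where 0.568% of all genes were called. In the same contrast NWD2 differed by 0.20 (SE 0.444), GRIA4 by -0.50 (SE 0.474) and NMNAT2 by -0.72 (SE 0.319), none of them called. For LPS at 5 days, DRAXIN was called higher than at term (adjusted p = 0.0382), where 0.0625% of all genes were called. Since the low term values of DRAXIN and MARCHF4 served to choose them, nothing is read from how these calls compare with the share over all genes. MARCHF4 was 2.04 (SE 0.519, adjusted p = 0.175) above term on the log2 scale without overlap, and was not called. NWD2 and GRIA4 lay below term without overlap, by -1.39 (SE 0.444, adjusted p = 0.260) and -1.11 (SE 0.474, adjusted p = 0.404), and NMNAT2 overlapped at -0.27 (SE 0.319). As ratios of counts, DRAXIN was 29.7-fold its term level with LPS + Beta-Ac (95% exact interval 7.98 to 250) and 17.1-fold with LPS at 5 days (4.47 to 146). These calls rest on 2 term controls: the DRAXIN call for LPS at 5 days was lost without any 1 of the 5 animals compared (adjusted p from 0.0896 to 0.135), and the MARCHF4 call without term control 200 or 201 or LPS + Beta-Ac animal 248 or 249 (adjusted p from 0.0584 to 0.269). For DRAXIN the adjusted p ranged from 0.0233 to 0.243 for LPS at 5 days and from 0.00102 to 0.0909 for LPS + Beta-Ac over the alternatives run, and for MARCHF4 from 0.0241 to 0.269.

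**Figure D3:**
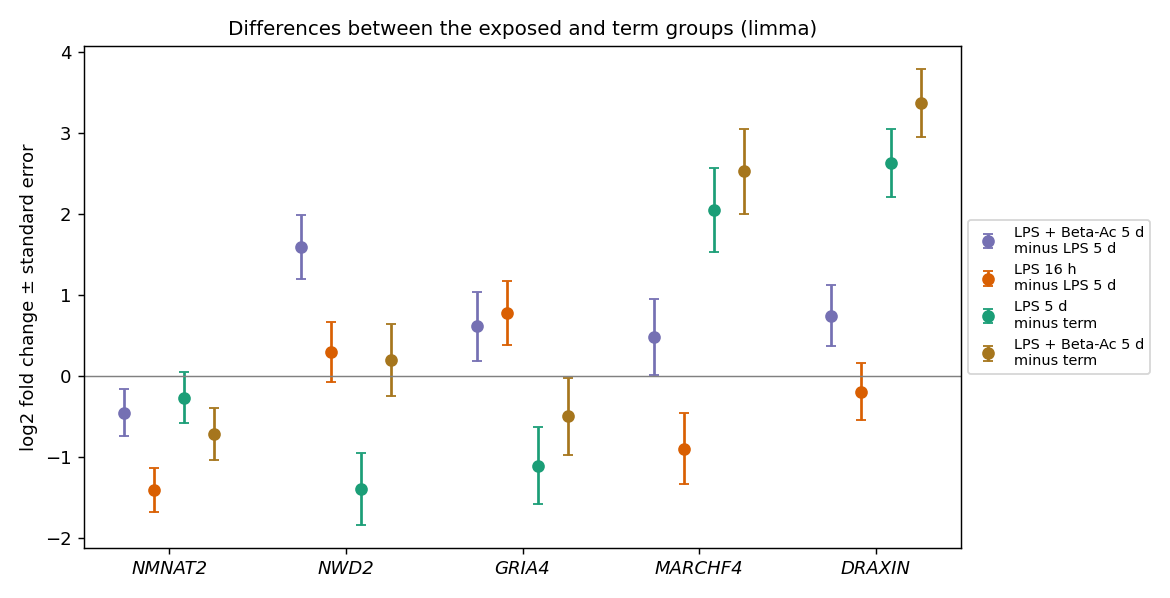
Differences between exposed and term groups that leave out the preterm controls, for the 5 genes. The vertical axis is the log2 fold change fitted by limma, points are estimates and bars are standard errors, and each colour is a contrast. DRAXIN and MARCHF4 lie above 0 against term, and NMNAT2 at 16 hours lies below its level at 5 days (-1.41).

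Most neural marker genes were not called. Of 20 neuron markers tested, limma called 2 lower and 1 higher at 16 hours, 2 lower at 5 days after LPS and 3 lower with LPS + Beta-Ac. Scaling by the total count alone, which moves the median of all genes by -0.205 at 16 hours, gave 5 lower there, and 1 was lower at 5 days after LPS without animal 092, 239, 240 or 242. Their median log2 difference was -0.27, -0.09 and -0.42 in these groups, against -0.09, -0.00 and -0.01 over all genes. At term none of the 20 was called by limma or limma-voom, with 1 lower and 4 higher at an unadjusted p below 0.05 and a median of 0.36. The shares of all genes called higher were 8.30% at 16 hours, 2.60% at 5 days after LPS, 4.05% with LPS + Beta-Ac and 1.11% at term. The summed level of the neuron list was 84.1 to 105 CPM in preterm controls, 94.6 to 127 at 16 hours, 78.5 to 94.5 at 5 days after LPS, 69.2 to 72.2 with LPS + Beta-Ac and 88.5 to 118 at term. Only the LPS + Beta-Ac range lay wholly below that of the preterm controls. The 16 h sum was held up by SYN1: without it the list summed to 85.2 ± 8.92 CPM (SD, n = 4) in preterm controls and 71.6 ± 13.7 CPM (SD, n = 4) at 16 hours, with overlapping ranges.

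Among single neuron markers, SYT1, a calcium sensor of synaptic vesicles, fell in all 3 exposed groups, by -1.33 (SE 0.275) at 16 hours, -1.57 (SE 0.297) at 5 days after LPS and -1.64 (SE 0.297) with LPS + Beta-Ac on the log2 scale. DCX, a microtubule protein of young neurons, was called lower in both 5 day groups, from a mean of 29.5 counts in preterm controls to 3.67 with LPS and 2.33 with LPS + Beta-Ac, and limma-voom did not call it with LPS alone (adjusted p = 0.103). SYN1, a synaptic vesicle protein, was the marker called higher at 16 hours (1.66, SE 0.143). TUBB3, the neuronal tubulin, had 20.7 CPM in preterm controls and 22.8, 19.3, 16.0 and 16.8 CPM at 16 hours, 5 days, with Beta-Ac and at term, and was not called. SNAP25, a protein of synaptic vesicle fusion, had 2.34 CPM in preterm controls and 1.14 to 2.38 CPM in the other groups, and was not called. ELAVL4, a neuronal RNA-binding protein, had 0.146 CPM in preterm controls and was too low to be tested.

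Of 16 autonomic neuron genes, 10 were tested. At 16 hours DBH, an enzyme of noradrenaline synthesis (log2 difference -1.18), and NOS1, the neuronal nitric oxide synthase (-2.23), were called lower, and the receptor genes RET (1.32) and CHRNB4 were called higher. CHRNB4 had a mean of only 1 count in preterm controls and 15.8 at 16 hours. The choline transporter SLC5A7 was called lower with LPS + Beta-Ac, from 27.8 to 3 counts on average, although the groups overlapped and limma-voom did not call it (adjusted p = 0.141). The transcription factor PHOX2A and the cholinergic genes CHAT and SLC18A3 were at 0 in all preterm controls or all but 1. The summed autonomic level was 17.1 to 23.2 CPM in preterm controls, 11.6 to 17.9 at 16 hours, 15.9 to 21.1 at 5 days after LPS, 13.3 to 16.0 with LPS + Beta-Ac and 16.9 to 17.4 at term.

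Of 11 Schwann cell and glia genes tested, 2 were called lower at 16 hours, 1 at 5 days after LPS and 2 with LPS + Beta-Ac. CDH19, a cadherin of Schwann cell precursors, was among them in each group, with log2 differences of -1.56, -1.03 and -1.09. SOX10, the transcription factor of that lineage, had 0.830 CPM in preterm controls and 0.305 to 0.874 CPM in the other groups, and was not called. The summed level of the list lay the other way, at 237 to 285 CPM in preterm controls and 289 to 379 CPM over the exposed groups. Of 10 neuroendocrine genes tested, 1 was called, CALCA, which codes for calcitonin gene-related peptide and was higher at 16 hours (log2 difference 2.67, SE 0.523). CHGA, a granule protein of pulmonary neuroendocrine cells, had 0.868 CPM in preterm controls and was not called. The part of any of these cell types in the levels of NMNAT2, GRIA4, NWD2, MARCHF4 and DRAXIN was not tested.

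**Figure D4:**
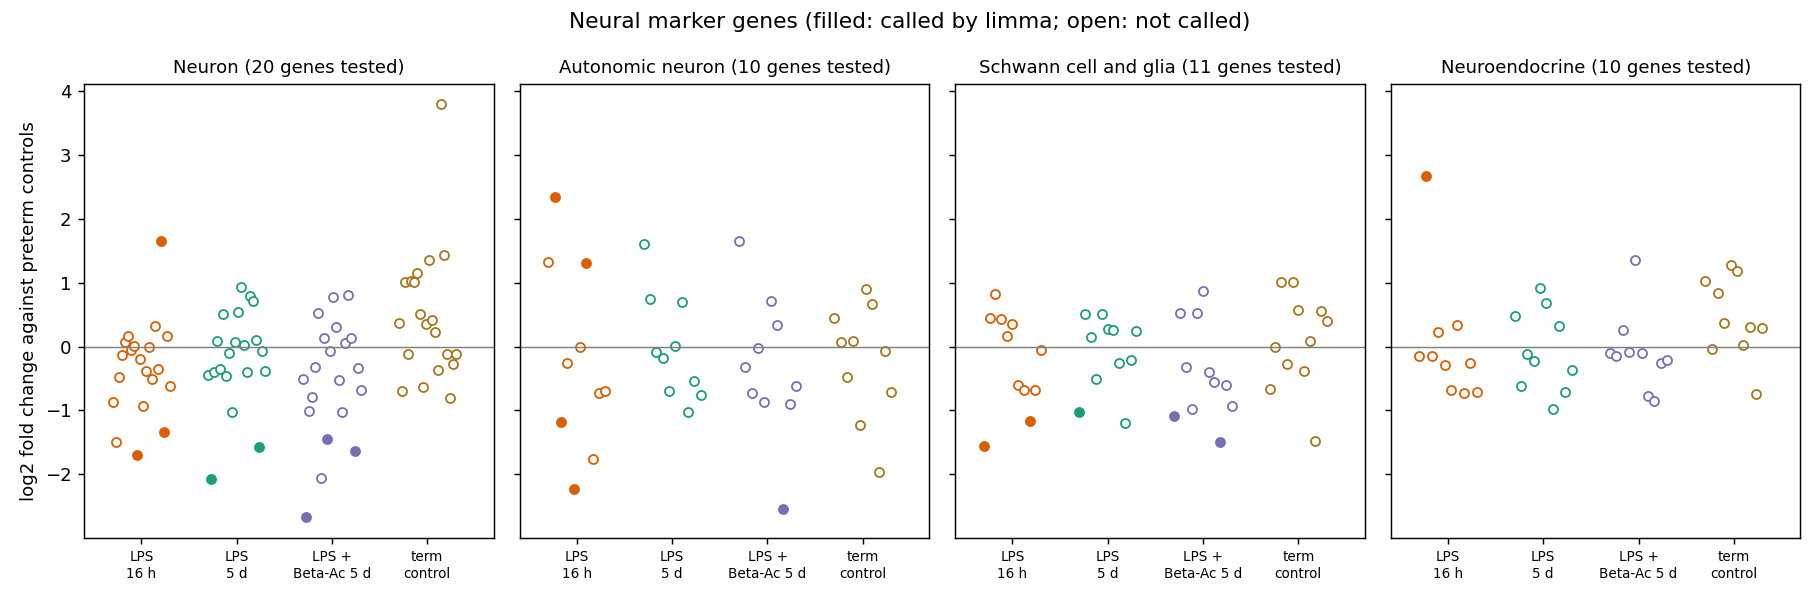
Log2 fold change against preterm controls of the tested genes of the neuron, autonomic neuron, Schwann cell and glia, and neuroendocrine lists, by group. Filled points were called by limma and open points were not called. In each panel points lie on both sides of 0, and the open point near 4 at term is STMN2, which was not called and rests on 34 and 184 counts in the 2 term controls.

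Genes of the same families and pathways were read in the same fit. GRIA3, another AMPA receptor subunit, fell in all exposed groups, from 10.4 CPM in preterm controls to 3.98 at 16 hours, 3.86 at 5 days after LPS and 3.08 with LPS + Beta-Ac. Its log2 differences were -1.45 (SE 0.337), -1.38 (SE 0.364) and -1.74 (SE 0.364). GRIA1 had 6.32 CPM in preterm controls and 2.32 to 8.11 CPM in the other groups without a call, and GRIA2 stayed between 2 and 29 counts per library. Of 17 glutamate receptor genes tested, 2 were called lower at 16 hours, 2 at 5 days after LPS, 1 with LPS + Beta-Ac and 2 at term. Besides GRIA3, GRIN2B was called at 16 hours, from 6.25 to 0.75 counts on average, and GRIK4 at term (-1.89). Limma-voom called 1 of the 17 lower at 5 days after LPS and none at term, where GRIK4 had an adjusted p of 0.144.

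Of 13 genes for proteins that accompany AMPA receptors, 4 were called lower at 16 hours, 2 at 5 days after LPS, 2 with LPS + Beta-Ac and 1 at term, and none was called higher in these contrasts. CACNG2 and CACNG4, auxiliary subunits of the receptor, fell by -1.96 (SE 0.380) and -2.55 (SE 0.408) at 16 hours, from 25.5 and 25.3 to 6.75 and 4.25 counts on average. CACNG7 (-1.12) and the scaffold GRIP2 (-1.63) fell at 16 hours, and CACNG7 also fell at 5 days after LPS (-1.65). CACNG2 was lower with LPS + Beta-Ac too (-1.56). OLFM1, a secreted protein that binds the receptor complex, fell from 23.4 CPM in preterm controls to 11.5 at 5 days after LPS, 10.9 with LPS + Beta-Ac and 10.2 at term, and had 36.9 CPM at 16 hours.

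NMNAT1, the nuclear enzyme that catalyses the same reaction as NMNAT2, had 14.1 CPM in preterm controls and 10.8 to 14.7 CPM in the other groups, and was not called in any of the contrasts with preterm controls. NMNAT3 matched no gene of the table. Of 17 genes of NAD synthesis and axon survival tested, none was called lower by limma in the 4 contrasts with preterm controls. At an unadjusted p below 0.05, 3 were lower at 16 hours, 2 at 5 days after LPS, 1 with LPS + Beta-Ac and 2 at term, and limma-voom called 1 lower at 16 hours. The nicotinamide riboside kinase NMRK2 was called higher in both 5 day groups, from 2 counts on average in preterm controls to 7.33 with LPS and 20.3 with LPS + Beta-Ac. The call with LPS alone was lost under limma-voom (adjusted p = 0.0685).

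Among 9 further MARCHF ligases tested, MARCHF1 (log2 difference 1.56) and MARCHF3 (1.41) were higher at 16 hours and MARCHF1 was higher with LPS + Beta-Ac (1.05, not called by limma-voom, adjusted p = 0.0827), while MARCHF5, a mitochondrial ligase, was lower at 5 days after LPS (-1.12). MARCHF9, which is close to MARCHF4 in sequence, had 12.4 CPM in preterm controls and 12.4 to 13.3 CPM in the other groups and was not called. MARCHF11 had at most 5 counts in any library. Of 8 genes related to NWD2 by the NACHT or WD-repeat type, 2 were called higher at 16 hours and 2 with LPS + Beta-Ac. NLRP3, an inflammasome sensor, rose at 16 hours by 3.06 (SE 0.203) on the log2 scale and NLRC5, a regulator of MHC class I genes, by 2.05 (SE 0.331). In the LPS + Beta-Ac group NLRP3 (1.03) and NLRP1 (1.71) were called higher. NWD1, the relative of NWD2, had 14 ± 10.2 CPM (SD, n = 4) in preterm controls and 7.66 to 15.2 CPM in the other groups, and was not called.

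Of 10 netrin ligands, receptors and related genes tested, 2 were called lower at 16 hours and 1 at term. DCC, a netrin receptor that DRAXIN binds, had 4.84 CPM in preterm controls, 2.29 at 16 hours, 2.36 at 5 days after LPS, 2.25 with LPS + Beta-Ac and 4.98 at term, and was not called. NEO1, a related receptor, had 186 CPM in preterm controls and 155 to 172 CPM elsewhere without a call. NTN1, the netrin ligand, had 9.83 CPM in preterm controls, 4.91 at 5 days after LPS (log2 difference -0.98, SE 0.183, adjusted p = 0.00256) and 4.88 at term (-0.99, SE 0.207, adjusted p = 0.0179), short of the fold limit in both. NTN3 (-1.64, SE 0.263) and NTN4 (-1.03, SE 0.165) fell at 16 hours, and the netrin receptor UNC5B fell at term (-1.0, SE 0.211), just past the fold limit here and just short of it under limma-voom. Of 30 other axon guidance genes tested, 4 were called lower and 2 higher at 16 hours, 2 lower in each 5 day group and 1 lower at term. The semaphorins SEMA3A (-1.17), SEMA3B (-1.84), SEMA3D (-1.90) and SEMA3E (-1.73) were lower at 16 hours, where the ephrin receptors EPHA4 (1.12) and EPHB2 (1.53) were higher. SEMA3D and EPHA3 made up both 5 day counts, with SEMA3D at -1.16 and -1.46 and EPHA3 at -1.35 and -1.58, and EPHA3 was also lower at term (-1.55), which limma-voom did not call (adjusted p = 0.0584).

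Markers of other cell types also differed between groups. Leukocyte genes were called higher in 5 of 9 cases at 16 hours, 3 of 9 at 5 days after LPS (1 by limma-voom), 6 of 9 with LPS + Beta-Ac and 3 of 9 at term, with a summed level of 137 to 246 CPM in preterm controls, 381 to 630 with LPS + Beta-Ac and 297 to 386 at term. Mesenchyme genes were called lower in 2, 0, 3 and 2 of 11 cases in the same order of groups, with 0 at 5 days by limma-voom as well and 6 lower at an unadjusted p below 0.05. Their summed level was 7414 to 12720 CPM in preterm controls, 5783 to 8105 at 16 hours, 4688 to 8981 at 5 days after LPS, 4541 to 6336 with LPS + Beta-Ac and 4405 to 4788 at term. Proliferation genes were called lower in 0 of 10 cases at 16 hours by limma and limma-voom, with 1 lower at an unadjusted p below 0.05, and in 6 of 10 at 5 days after LPS, 3 of 10 with LPS + Beta-Ac and 6 of 10 at term, and summed to 205 to 284 CPM in preterm controls, 190 to 247 at 16 hours and 110 to 124 at term. Of 8 smooth muscle genes, 1 was called lower in each exposed group and 2 at term, but 5 were lower at an unadjusted p below 0.05 at 16 hours and 6 in each of the other groups. Their median log2 difference was -0.76 at 16 hours, -0.84 at 5 days after LPS, -0.87 with LPS + Beta-Ac and -0.91 at term. Their summed level was 1902 to 2475 CPM in preterm controls, 1510 to 1977 at 16 hours, 1101 to 1290 at 5 days after LPS, 1052 to 1367 with LPS + Beta-Ac and 870 to 1400 at term, so that all groups but the 16 h group lay wholly below the preterm controls. The 16 h sum was held up by TAGLN and DES, with means of 635 and 125 CPM against 439 and 34.5 in preterm controls. Every other gene of the list had a lower mean at 16 hours than in preterm controls. At most 2 of 7 endothelial genes were lower in any group, at most 2 of 10 lung epithelial genes were higher, and of 6 mesothelial genes 1 was lower and 1 higher at 16 hours. Of the lung epithelial genes, HOPX was called lower at 16 hours (log2 difference -1.34, SE 0.206). Over the 16 animals, NMNAT2 had r = -0.884 with the leukocyte list, 0.826 with the AMPA receptor auxiliary list, 0.772 with the netrin list and 0.76 with the mesenchyme list, and with group means removed r was 0.337, -0.182, 0.693 and -0.3. NWD2 had r = 0.744 with the mesenchyme list, and 0.647 with group means removed. Its r with the neuroendocrine, autonomic neuron, glutamate receptor and Schwann cell lists was -0.232, -0.145, 0.0832 and -0.0494. With group means removed, these values were -0.747, -0.729, -0.699 and -0.612. MARCHF4 had r = 0.309 with the list of other axon guidance genes, and -0.837 with group means removed. With the neuron list, r was 0.417 for NMNAT2, 0.307 for GRIA4, 0.166 for NWD2, -0.165 for MARCHF4 and -0.573 for DRAXIN, and with group means removed it was 0.0975, 0.0434, -0.326, 0.216 and 0.27. These correlations share libraries and group differences, and the part of these cell types was not tested.

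The genes whose log2 CPM over the 16 animals was most like each of the 5 were found among all 19199. NMNAT2 was followed most closely by LANCL1 (Pearson r = 0.952), STX6 (r = 0.950) and BBS10 (r = 0.942). NWD2 had TIAM1 (r = 0.916), GASK1A (r = 0.902) and SDC2 (r = 0.900), and GRIA4 had UBE2E2 (r = 0.902), HS3ST3A1 (r = 0.895) and KPNA3 (r = 0.884). MARCHF4 had KRT75 (r = 0.920), DBN1 (r = 0.871) and CENPM (r = 0.868), and DRAXIN had MCM5 (r = 0.918), SMOX (r = 0.821) and ZNF423 (r = 0.814). With group means removed, KRT75 kept r = 0.834 with MARCHF4, and the others had r between 0.240 and 0.733. NMNAT2 had r of at least 0.8 with 411 of 19198 genes (2.14%), so its pattern was shared widely, whereas GRIA4 had 144, NWD2 142, MARCHF4 20 and DRAXIN 6.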

How the data were processed

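The authors extracted RNA from lung of 16 fetuses, selected poly(A) RNA, sequenced 75 bp paired-end reads, assigned them with kallisto (build Mmul_10), and deposited 1 unnormalized whole-number count for each gene and library. Versions of the tools, and which annotation release was used, were not given in the sources used here. Because of its layout, the unit of the table could not be recorded as counts, so the count models planned in that case were not run.

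Counts were scaled by TMM (30% of log ratios and 5% of mean values trimmed), turned into log2 CPM (prior count 2), and fitted with limma 3.58.1 (trend, robust) in R 4.3.3, with 1 mean per group and all 16 animals. Tested genes had 15 or more counts over all libraries and 0.371 CPM or more in 2 or more animals. P-values are two-sided and adjusted by Benjamini-Hochberg over 19199 genes. The fit was tested on simulated data. Symbols came from a table of Ensembl IDs, and 17256 IDs had one. No 2 libraries of a group agreed within counting error (chi-square per degree of freedom of at least 32.5). Each library is a separate animal, and the labels give no batch and no pairing.

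The genes and all gene lists were chosen with earlier results of these data known. Called genes of the neural and family lists were named, up to 4 per direction with the largest fold, besides fixed defining markers and closest relatives, and lists of other cell types are given by counts. Genes with a mean under 4 counts in a group are given as counts. STMN2 was named after its value was seen, and some single genes are not reported here. Alternatives were other scaling, prior counts, filters, limma-voom, only the compared groups, and each animal left out. A fit without the 4 animals of the 16 h group was added after seeing the data.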

Additional observations from a re-analysis of the deposited data

Results flagged for a closer look

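Effects that differed between groups in a tested contrast were found for 3 of the genes. NMNAT2 was lower 16 hours after LPS than 5 days after it, by -1.41 on the log2 scale in limma. DRAXIN was higher 5 days after LPS than at term, with a fitted log2 difference of 2.63, and higher with LPS + Beta-Ac than at term, with 3.37, but each term control had only 1 count and these fitted values depend on the constant added to the counts. MARCHF4 was higher with LPS + Beta-Ac than at term, by 2.52 on the log2 scale. DRAXIN and MARCHF4 were chosen with their low term values known, so these differences from term are not independent of the choice. NMNAT2 was likewise chosen with its low level at 16 hours known, so its difference is not independent of the choice either. In the groups of 4 animals, no animal stood apart from the others in the level of NMNAT2, GRIA4, NWD2, MARCHF4 or DRAXIN by Dixon's test. With 4 values this test finds only a large gap, so nothing is read from this.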

How the results depend on the processing

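The call of NMNAT2 at 16 hours against 5 days after LPS held under every alternative run. It is not independent of the choice of the gene, which used its low level at 16 hours. Against term, the calls rested on 2 animals and few counts. For LPS at 5 days, 1 of the 5 genes was called, and 0 were called with a prior count of 5, with limma-voom, with only the compared groups, and without any 1 of the term controls 200 and 201 or the LPS animals 239, 240 and 242 (range 0 to 0). For LPS + Beta-Ac, 2 were called, against 1 with limma-voom, 0 with only the compared groups, and 1 to 2 when an animal was left out, with MARCHF4 lost without term control 200 or 201 or LPS + Beta-Ac animal 248 or 249. LPS + Beta-Ac against LPS gave 0 calls under every alternative run. Of the neuron markers, 2 were called lower at 16 hours, and 5 when only the total count was used for scaling, which shifts the median of all genes by -0.205 on the log2 scale (2 to 3 when an animal was left out). At 5 days after LPS, 2 were called lower, and 1 with a prior count of 0.5, with limma-voom, with only the compared groups, and without preterm control 092 or LPS animal 239, 240 or 242 (range 1 to 2). At term 1 was called higher without animal 201 (range 0 to 1). The sign turned for NWD2 with LPS + Beta-Ac against term without term control 200 (-0.21) or LPS + Beta-Ac animal 248 (-0.085), with a range of -0.21 to 0.60 when an animal was left out. It also turned for DRAXIN at 16 hours against 5 days without animal 038 (0.061, range -0.43 to 0.061), and neither difference was called. The fitted log2 difference of DRAXIN at term from preterm controls was -2.97, and -3.88 with a prior count of 0.5, -2.14 with 5 and -3.91 with limma-voom, since 2 counts set it. With limma-voom the cause of the lost calls was not tested, and dropping groups or animals leaves fewer samples. Of 315 differences of the 5 genes from preterm controls recomputed under the alternatives, 312 moved by less than the spread between animals. No paired analysis was possible because the groups share no animal numbers. The planned count-model alternatives were not run, as the unit could not be recorded as counts. Term has 2 animals, and DRAXIN counts limit any fold against it.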
